A study of Mus musculus with 8 samples.

Results

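The genes described here encode the enzymes that break down tryptophan and the proteins that import, use or sense it. They are Ido1, Ido2, Tdo2, Afmid, Kmo, Kynu, Haao, Ahr, Wars and Slc7a5. These 10 genes were taken by symbol from a table of 49585 genes, and all 10 had enough counts to be tested among 22693 genes. RNA came from the whole uterus, with its conceptuses, of Foxp3DTR female mice aged 8 weeks at day 8 of pregnancy (E8) after mating with BALB/c males, an allogeneic cross. The DT libraries came from 4 females given 1 µg of diphtheria toxin intraperitoneally at E1, E3, E5 and E7, and the PBS libraries from 4 females given PBS in the same way. All 8 females carried the Foxp3DTR allele, which puts the toxin receptor on Foxp3-expressing regulatory T cells. The labels state that the regimen removed 85% of these cells.

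Tryptophan is an essential amino acid. Indoleamine 2,3-dioxygenase and tryptophan 2,3-dioxygenase open its ring in the first and rate-limiting step of the kynurenine pathway, which later leads to NAD. Loss of tryptophan and gain of kynurenines both restrain T cells, and chemical inhibition of indoleamine 2,3-dioxygenase in pregnant mice is known for causing the loss of allogeneic conceptuses. Interferon-gamma is a classical inducer of Ido1.

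Each library held between 94794512 and 109847604 counts. Foxp3 itself did not separate the groups (log2 fold change DT minus PBS 0.15 ± 0.10 SE, edgeR adjusted p = 0.595), so it gave no check of the labels. Defining markers of decidual stroma and myometrium were present in all 8 libraries, with sums of 2698 to 9192 CPM (counts scaled to the TMM-adjusted library size) in DT libraries and 6056 to 12310 CPM in PBS libraries for 8 decidual markers. Libraries differed in their conceptus content. The summed level of 19 markers of trophoblast, yolk sac endoderm and embryonic erythroid cells was 44.9, 151, 88.5 and 131 CPM in DT replicates 1, 3, 4 and 5, against 394, 1049, 67.9 and 132 CPM in PBS replicates 1, 2, 4 and 6. PBS replicates 1 and 2 therefore stood above the other libraries. These libraries also share a tag in their sample titles, whose meaning is not stated. PBS replicates 4 and 6 share another tag, as do DT replicates 1 and 3, and DT replicates 4 and 5. No tag occurs in both groups, so tag and treatment cannot be fully separated. The part of the tag in the differences between libraries was not tested. Of these 19 markers, the embryonic globin genes Hbb-bh1, Hbb-y and Hba-x were at 0 in some libraries. DT replicate 1 had the lowest decidual sum, 2698 CPM, and the next lowest library was PBS replicate 4 at 6056 CPM. Because the tissue was bulk, fewer cells of a type and less RNA per cell cannot be told apart. Values of the 10 genes that rest on PBS replicates 1 and 2 or DT replicate 1 are given with and without them.

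Tryptophan 2,3-dioxygenase, not indoleamine 2,3-dioxygenase, was the main first-step transcript in these uteri. Counted per kilobase of exon so that genes can be compared, Tdo2 averaged 339 ± 72.7 CPM per kb in DT libraries and 352 ± 13.4 CPM per kb in PBS libraries (SD, n = 4 each). It ranked 66th of the 22693 genes tested by its mean over all 8 libraries. Ido1 averaged 0.451 ± 0.26 CPM per kb in DT libraries and 0.683 ± 0.424 in PBS libraries, and Ido2 averaged 0.351 ± 0.147 in DT libraries and 0.506 ± 0.241 in PBS libraries. Tdo2 made up 99.7% to 99.9% of the summed level per kb of these 3 genes in DT libraries and 99.4% to 99.9% in PBS libraries.

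Below Tdo2, Wars ranked 278th, with 116 ± 37.7 CPM per kb in DT libraries and 120 ± 8.35 CPM per kb in PBS libraries (SD, n = 4 each). Slc7a5 followed at 6.78 ± 0.382 in DT libraries and 9.39 ± 2.76 in PBS libraries, and Ahr at 3.78 ± 0.562 in DT libraries and 3.2 ± 0.432 in PBS libraries. The downstream enzymes were low. Afmid, Kmo, Haao and Kynu lay between 0.033 and 0.702 CPM per kb as means of DT libraries and between 0.0337 and 0.736 as means of PBS libraries. The 10 genes had the same order in both groups. Library ranges overlapped between the neighbours Afmid and Ido1, Ido1 and Ido2, and Ido2 and Kmo in both groups, and the other neighbours did not overlap.

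**Figure D1:**
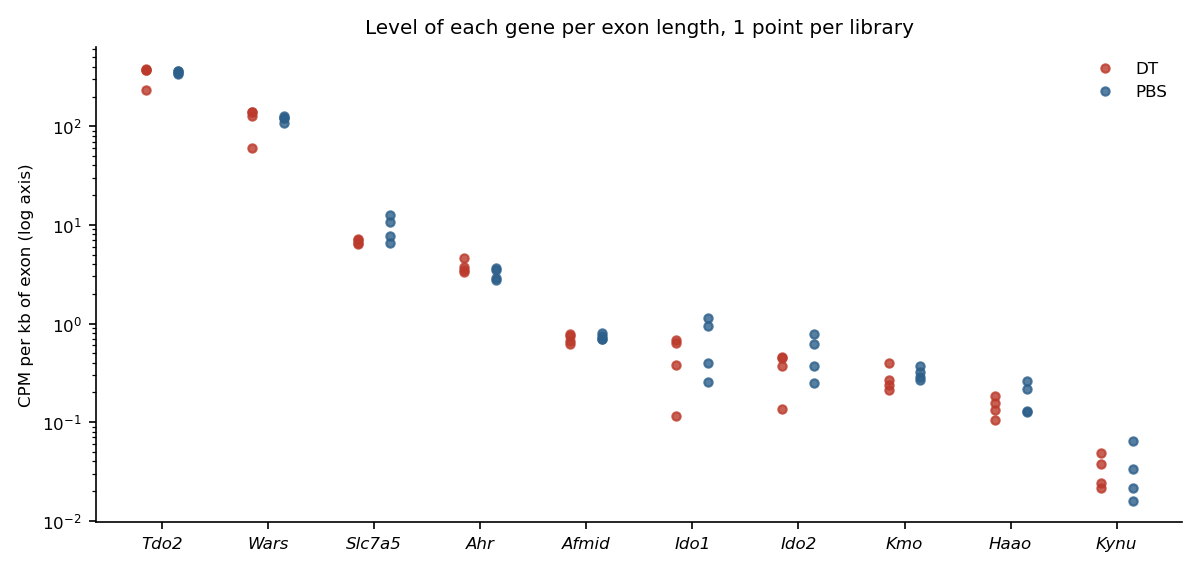
Level of each of the 10 genes in CPM per kb of exon on a log axis, with 1 point per library (DT red on the left, PBS blue on the right). Tdo2 and Wars lie above all other genes in every library, and Kynu lies lowest on average.

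None of the 10 genes passed the test of DT against PBS. By edgeR at an adjusted p under 0.05, 0 of 10 were higher and 0 lower, against 0.326% of all genes tested in either direction, 0.322% higher and 0.00441% lower. Without adjustment, 1 gene had a p under 0.05 (Slc7a5, lower), against 8.7% of all genes, and DESeq2 and limma voom each called 0, against 1.47% and 0.229% of all genes. The DT and PBS libraries overlapped for all 10 genes, against 5.06% of genes tested that did not overlap (3.33% higher, 1.73% lower). The log2 fold change was negative for 9 of 10 genes and positive for Ahr, with a median of -0.11, against 0.0070 over all genes.

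**Figure D2:**
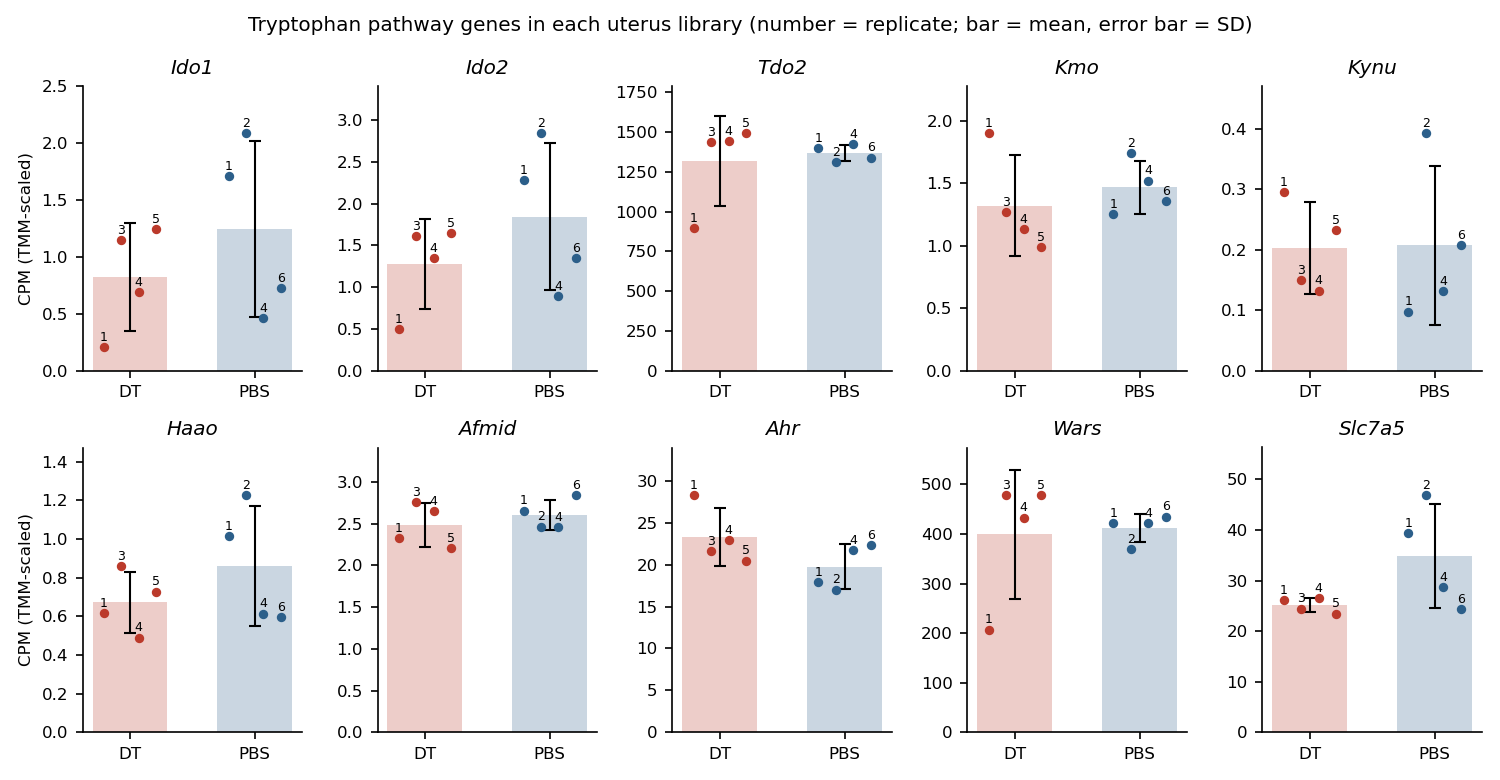
CPM of each gene in every library, with replicate numbers beside the points, bars at the mean and error bars of 1 SD (DT left, PBS right; n = 4 each). The DT and PBS points overlap in all 10 panels, and DT replicate 1 is the lowest library for Ido1, Ido2, Tdo2 and Wars.

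Of the genes of interferon-gamma signalling, Irf1 was higher in the DT libraries. Irf1, a transcription factor that interferon-gamma induces and that acts on Ido1, measured 43.5, 64.9, 65.7 and 71.7 CPM in DT replicates 1, 3, 4 and 5, against 31.4, 31.9, 31.3 and 34.1 CPM in PBS replicates 1, 2, 4 and 6. The groups did not overlap. Irf1 was 1.91-fold higher (log2 fold change 0.93 ± 0.14 SE, edgeR adjusted p = 0.0491) and was the 1 called gene of 9 interferon-gamma signal genes, while DESeq2 called 3 higher, Irf1 and Ifng among them, and limma voom called 0. Over all genes tested, 0.322% were called higher by edgeR. Without adjustment, 4 of the 9 had a p under 0.05, all higher, against 8.7% of all genes in either direction. The groups did not overlap for 3 of the 9, all higher, against 3.33%, and the median log2 fold change of the 9 was 0.13, against 0.0070 over all genes. Over 18 alternative settings its log2 fold change stayed between 0.77 and 1.07, but 12 of them left it above the threshold, with adjusted p between 4.36e-06 and 0.996 over the 18. These included each fit that left out 1 library, other than DT replicate 1, and the fit without PBS replicates 1 and 2 (adjusted p = 0.599). Ifng itself measured 0.148 to 0.291 CPM in DT libraries and 0.0619 to 0.0762 CPM in PBS libraries and did not pass (edgeR adjusted p = 0.0747). These values rest on only 19 to 30 counts in DT libraries and 6 to 8 counts in PBS libraries. All 7 T cell markers were also higher in DT libraries without overlap. By edgeR, Cd3e and Cd5, both T cell surface proteins, were called, and by DESeq2 all 7 were. Counts in PBS libraries were low, at 16 to 42 for Cd3e and 9 to 19 for Cd5. The sum of the T cell markers was 7.66 to 10.5 CPM in DT libraries and 2.05 to 3.69 CPM in PBS libraries. As for Irf1, DT replicate 5 was the highest and DT replicate 1 the lowest of the DT libraries. Among PBS libraries the orders differed, with PBS replicate 4 highest for the T cell markers and lowest for Irf1. EdgeR also called 2 of 7 macrophage markers, C1qa and C1qb, and 1 of 7 dendritic cell markers, Xcr1, all higher in DT libraries. In each of these lists 5 log2 fold changes were positive and 2 negative. The negative ones were -0.54 for Cd68 and -0.017 for Cd163 among macrophage markers. Among dendritic cell markers they were -0.34 for Cd209a and -0.52 for Ccr7. The part of these markers in the Irf1 result was not tested. The difference between Irf1 and any of the 10 genes was not tested.

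**Figure D3:**
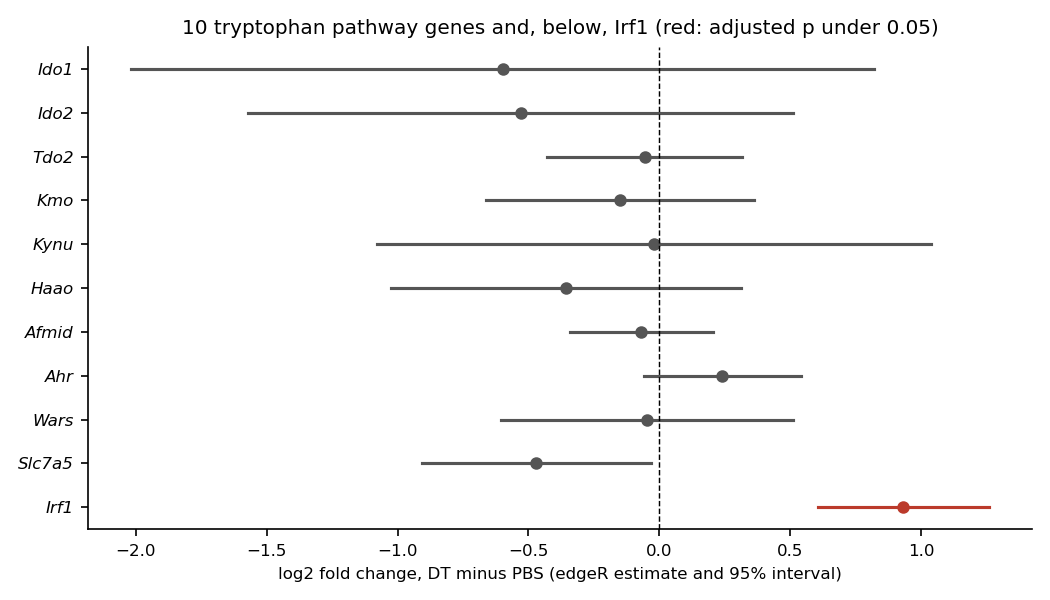
Log2 fold change of DT minus PBS with its 95% interval from edgeR for the 10 genes and, in the lowest row, Irf1. The intervals of 9 genes include 0, that of Slc7a5 ends at -0.032, and that of Irf1 runs from 0.61 to 1.26.

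Ido1 encodes indoleamine 2,3-dioxygenase 1 (ENSMUSG00000031551, GRCm38 chromosome 8, 24584136 to 24597009, minus strand). It measured 0.21, 1.15, 0.694 and 1.24 CPM in DT replicates 1, 3, 4 and 5, from 27, 115, 68 and 128 counts. In PBS replicates 1, 2, 4 and 6 it measured 1.71, 2.08, 0.463 and 0.728 CPM, from 157, 202, 49 and 77 counts. PBS replicates 1 and 2 were the highest of all 8 libraries and DT replicate 1 the lowest, while DT replicates 3, 4 and 5 and PBS replicates 4 and 6 lay between them. The spread within a group was 5.91-fold in DT libraries and 4.5-fold in PBS libraries, beyond the counting error of 19.2% for the lowest count. The group means were 0.824 ± 0.474 CPM in DT libraries and 1.25 ± 0.774 CPM in PBS libraries (SD, n = 4 each). The log2 fold change was -0.60 ± 0.62 (SE, edgeR adjusted p = 0.683), with a 95% interval from 0.247-fold to 1.77-fold.

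The sign of the Ido1 difference depended on the libraries used. Without PBS replicates 1 and 2 the log2 fold change was 0.46 ± 0.67 (SE, edgeR unadjusted p = 0.522). Without these and DT replicate 1 it was 0.79 ± 0.34 (SE, edgeR unadjusted p = 0.0616, adjusted p = 0.71). With the conceptus marker score as a covariate it was 0.37 ± 0.39 (SE, edgeR unadjusted p = 0.368). None of these passed the test. When 1 library at a time was left out, the estimate stayed negative, between -0.87 and -0.23.

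Ido2, a paralogue with the same fold and a lower affinity for tryptophan, lies 7802 bases from Ido1 (ENSMUSG00000031549, chromosome 8, 24531892 to 24576333, minus strand). It measured 0.498, 1.61, 1.35 and 1.65 CPM in DT replicates 1, 3, 4 and 5, against 2.28, 2.84, 0.897 and 1.35 CPM in PBS replicates 1, 2, 4 and 6. The 8 libraries fell in the same order for Ido2 as for Ido1, with PBS replicate 2 highest and DT replicate 1 lowest. No 75-base window of either transcript occurred in another annotated gene, so reads of the 2 genes could be told apart at that length. For Ido2 the log2 fold change was -0.53 ± 0.45 (SE, edgeR adjusted p = 0.637), with a 95% interval from 0.336-fold to 1.43-fold. It was 0.17 ± 0.49 without PBS replicates 1 and 2, and 0.45 ± 0.23 without these and DT replicate 1.

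Tdo2 encodes tryptophan 2,3-dioxygenase (ENSMUSG00000028011, GRCm38 chromosome 3, 81957090 to 81976202, minus strand), a liver enzyme that the mouse decidua is also known to express. It measured 894, 1437, 1443 and 1490 CPM in DT replicates 1, 3, 4 and 5, against 1397, 1312, 1424 and 1338 CPM in PBS replicates 1, 2, 4 and 6. DT replicate 1 stood below all other libraries, and the other 7 lay within 1312 to 1490 CPM. The spread was 1.67-fold in DT libraries and 1.09-fold in PBS libraries, the smallest PBS spread of the 10 genes. Tdo2 had a DT minus PBS log2 fold change at -0.055 ± 0.16 (SE, edgeR adjusted p = 0.889), with a 95% interval from 0.743-fold to 1.25-fold. Without DT replicate 1 it was 0.094 ± 0.071 (SE, edgeR adjusted p = 0.769).

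Promoter sequence was at hand from RefSeq (build GRCm38.p6, 250 bases before to 50 after a start site) for 4 of the 10 genes, Tdo2, Afmid, Kmo and Haao. Ido1, Ido2, Kynu, Ahr, Wars and Slc7a5 had no entry. The 4 windows were searched on both strands for the interferon-gamma activated site TTCNNNGAA, the interferon-stimulated response element (ISRE), the AHR core GCGTG and the amino acid response element TGATGNAA. The first 2 and the last had no match in these 4 windows, and they occur in 8.3%, 3.44% and 3.97% of all 32851 windows. The AHR core occurs in 32.4% of all windows and had 1 match each in the windows of Tdo2 and Haao. A stretch of the Tdo2 window is shown because this gene dominates the first step, beside the Irf1 stretch, whose gene was higher in DT libraries. Capitals mark the AHR core, read on the opposite strand as CACGC, in Tdo2, and the interferon-gamma activated site, whose pattern matches on both strands, in Irf1. Irf1 has 2 windows in the table. The site is in the first, which is shown, and not in the second, and the AHR core occurs in both, with 1 match in the first and 2 in the second. The Tdo2 stretch is chr3:81975829-81975978 on the minus strand, and the Irf1 stretch is chr11:53769884-53769983 on the plus strand.
Tdo2: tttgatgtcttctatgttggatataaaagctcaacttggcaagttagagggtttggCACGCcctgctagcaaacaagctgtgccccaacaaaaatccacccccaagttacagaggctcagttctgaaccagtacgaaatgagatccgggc
Irf1: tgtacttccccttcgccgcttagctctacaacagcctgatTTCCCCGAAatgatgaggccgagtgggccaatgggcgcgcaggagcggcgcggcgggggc
The match in Tdo2 begins at -194 from the start site and that in Irf1 at -90. These are matches of letters only.

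The enzymes after the first step were low and did not separate the groups. Afmid encodes arylformamidase, which releases kynurenine (ENSMUSG00000017718, chromosome 11, 117825924 to 117839908, plus strand). It measured 2.33, 2.76, 2.65 and 2.2 CPM in DT replicates 1, 3, 4 and 5, against 2.66, 2.46, 2.46 and 2.84 CPM in PBS replicates 1, 2, 4 and 6. These are the tightest values among the downstream enzymes. Its log2 fold change was -0.069 ± 0.12 (SE, edgeR adjusted p = 0.807), with a 95% interval from 0.789-fold to 1.15-fold. Exons of the predicted gene Gm20708 cover 44.3% of Afmid on the same strand, and 39.1% of Afmid windows of 75 bases were shared with another gene, so its count may lack or include such reads.

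Kmo encodes kynurenine 3-monooxygenase, which makes 3-hydroxykynurenine (ENSMUSG00000039783, chromosome 1, 175620381 to 175662116, plus strand). It measured 1.9, 1.27, 1.13 and 0.99 CPM in DT replicates 1, 3, 4 and 5, against 1.25, 1.74, 1.52 and 1.36 CPM in PBS replicates 1, 2, 4 and 6. DT replicate 1, the lowest library for Ido1 and Ido2, was the highest for Kmo. For Kmo the log2 fold change was -0.15 ± 0.22 (SE, edgeR adjusted p = 0.776), and -0.38 without DT replicate 1.

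Kynu encodes kynureninase, which cleaves kynurenine and its 3-hydroxy form (ENSMUSG00000026866, chromosome 2, 43555329 to 43682715, plus strand). It had only 38, 15, 13 and 24 counts in DT replicates 1, 3, 4 and 5, and 9, 38, 14 and 22 counts in PBS replicates 1, 2, 4 and 6. The log2 fold change was -0.021 ± 0.46 (SE, edgeR adjusted p = 0.987), with a wide 95% interval from 0.473-fold to 2.05-fold. Changes within that interval could not be told from none.

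Haao encodes the 3-hydroxyanthranilate dioxygenase that leads to quinolinate (ENSMUSG00000000673, chromosome 17, 83831156 to 83847963, minus strand). It measured 0.615, 0.859, 0.49 and 0.728 CPM in DT replicates 1, 3, 4 and 5, against 1.01, 1.23, 0.614 and 0.595 CPM in PBS replicates 1, 2, 4 and 6. PBS replicates 1 and 2 were again the highest libraries. The log2 fold change was -0.36 ± 0.29 (SE, edgeR adjusted p = 0.629), and 0.15 ± 0.26 without PBS replicates 1 and 2.

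Of 13 further enzymes that handle kynurenine or make NAD, all were tested and 0 passed by edgeR, DESeq2 or limma voom. At an unadjusted p under 0.05, 2 were lower and 0 higher, against 8.7% of all genes in either direction. The median log2 fold change was -0.065, against 0.0070 over all genes. Nmnat2, which joins the nucleotide parts of NAD, had 2.29, 5.7, 4.05 and 5.91 CPM in DT replicates 1, 3, 4 and 5, against 10.4, 9.31, 5.09 and 8.05 CPM in PBS replicates 1, 2, 4 and 6. The Nmnat2 groups overlapped through PBS replicate 4 (log2 fold change -0.87 ± 0.33 SE, edgeR adjusted p = 0.553). Without PBS replicates 1 and 2 the Nmnat2 value was -0.56 ± 0.40. Qprt, which turns quinolinate into an NAD precursor, had 1.2 to 1.24 CPM in DT libraries and 1.22 to 1.94 CPM in PBS libraries (log2 fold change -0.42 ± 0.16, adjusted p = 0.558). Nampt, the NAD salvage enzyme, was chosen after its values were seen. It had 463 CPM in DT replicate 1 and 912 to 1002 CPM in the 4 PBS libraries, and DT replicates 3, 4 and 5 lay between 925 and 932 CPM. This is the pattern of libraries seen for Tdo2, with DT replicate 1 alone below the rest. The log2 fold change of Nampt was -0.22 ± 0.21 (SE, edgeR adjusted p = 0.67), and -0.021 ± 0.069 without DT replicate 1.

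Ahr encodes the aryl hydrocarbon receptor, a transcription factor that kynurenines can bind (ENSMUSG00000019256, GRCm38 chromosome 12, 35497974 to 35535038, minus strand). It measured 28.3, 21.6, 23 and 20.5 CPM in DT replicates 1, 3, 4 and 5, against 17.9, 17, 21.7 and 22.3 CPM in PBS replicates 1, 2, 4 and 6. DT replicate 1 was highest and PBS replicates 1 and 2 were lowest, the reverse of Ido1 at both ends. For Ahr the log2 fold change was 0.24 ± 0.13 (SE, edgeR adjusted p = 0.571), with a 95% interval from 0.96-fold to 1.45-fold. It was 0.14 without DT replicate 1 and 0.081 without PBS replicates 1 and 2. Without these and DT replicate 1 it was -0.023.

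Among 13 partners and target genes of the receptor, 12 could be tested and 0 passed by edgeR, DESeq2 or limma voom. At an unadjusted p under 0.05, 1 was lower and 0 higher, against 8.7% of all genes in either direction. The median log2 fold change was -0.046, against 0.0070 over all genes. The lower gene was Tiparp, a target gene that in turn represses the receptor. It measured 42.2, 48.3, 47.9 and 45.8 CPM in DT replicates 1, 3, 4 and 5, against 67.5, 76.9, 49.5 and 56 CPM in PBS replicates 1, 2, 4 and 6. The Tiparp groups did not overlap, with PBS replicates 1 and 2 highest (log2 fold change -0.44 ± 0.13 SE, edgeR adjusted p = 0.467). Without those libraries the Tiparp value was -0.20 ± 0.087. Ahrr, the repressor of the receptor, had 0.272 to 0.731 CPM in DT libraries and 0.175 to 0.454 CPM in PBS libraries (log2 fold change 0.62 ± 0.40, adjusted p = 0.579). Cyp1a2 had too few counts to be tested.

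Wars encodes the cytosolic enzyme that charges tRNA with tryptophan (ENSMUSG00000021266, chromosome 12, 108860030 to 108894174, minus strand), and its human homologue is known for induction by interferon-gamma. It measured 207, 478, 433 and 478 CPM in DT replicates 1, 3, 4 and 5, against 421, 370, 422 and 435 CPM in PBS replicates 1, 2, 4 and 6. DT replicate 1 was the lowest library by a wide gap, and DT replicates 3 and 5 were the highest. Over all 8 libraries the log2 fold change was -0.046 ± 0.24 (SE, edgeR adjusted p = 0.942), with a 95% interval from 0.658-fold to 1.43-fold. Without DT replicate 1 it was 0.17 ± 0.083 (SE, edgeR adjusted p = 0.713).

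Wars was also set against the 19 other cytosolic aminoacyl-tRNA synthetase genes, which serve the same function for other amino acids. Its log2 CPM exceeded their mean by 1.35, 2.18, 2.16 and 2.18 in DT replicates 1, 3, 4 and 5, and by 1.90, 1.76, 2.10 and 2.01 in PBS replicates 1, 2, 4 and 6. DT replicates 3, 4 and 5 lay above the 4 PBS libraries and DT replicate 1 lay below them. The difference of the group means was 0.026 (two-sided exact permutation p = 0.914, n = 4 each, where the smallest possible p is 0.0286). Without DT replicate 1 the difference was 0.23 (exact permutation p = 0.0571, 3 against 4 libraries). Of the 19 other genes, 18 had a negative log2 fold change, with a median of -0.10, against 0.0070 over all genes. By edgeR and limma voom 0 of 19 passed, and DESeq2 called 1 lower, Farsb, against 1.47% of all genes in either direction. At an unadjusted p under 0.05 there were 2 lower, against 8.7% of all genes in either direction. The groups did not overlap for 3 of the 19, all lower, against 1.73% of all genes. The nearest by edgeR were Farsb, a subunit of the phenylalanine enzyme, with a log2 fold change of -0.13 ± 0.046 (SE, adjusted p = 0.54), and Iars, the isoleucine enzyme, with -0.25 ± 0.10 (adjusted p = 0.562).

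Slc7a5 encodes LAT1, the large neutral amino acid transporter that brings tryptophan into cells (ENSMUSG00000040010, GRCm38 chromosome 8, 121881150 to 121907694, minus strand). It measured 26.1, 24.5, 26.5 and 23.5 CPM in DT replicates 1, 3, 4 and 5, against 39.3, 46.9, 28.7 and 24.4 CPM in PBS replicates 1, 2, 4 and 6. The DT libraries lay within 1.13-fold of each other, while the PBS libraries spread over 1.93-fold with PBS replicates 1 and 2 on top. The log2 fold change was -0.47 ± 0.19 (SE), the only one of the 10 with an unadjusted p under 0.05, and it did not pass (edgeR adjusted p = 0.562). It was -0.29 without PBS replicate 2 and -0.080 without PBS replicates 1 and 2.

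Of 15 other genes of tryptophan use and transport, 13 could be tested and 0 passed by edgeR, DESeq2 or limma voom. At an unadjusted p under 0.05 there were 2 lower genes and none higher, against 8.7% of all genes in either direction. The median log2 fold change was -0.20, against 0.0070 over all genes. Slc16a10, a transporter of aromatic amino acids, had 7.5 to 8.65 CPM in DT libraries and 8.79 to 11.1 CPM in PBS libraries, without overlap (log2 fold change -0.31 ± 0.095 SE, edgeR adjusted p = 0.475). Slc6a19, a neutral amino acid transporter, had 0.00778, 0.6, 0.143 and 0.582 CPM in DT replicates 1, 3, 4 and 5, against 4.37, 4.78, 0.0472 and 1.01 CPM in PBS replicates 1, 2, 4 and 6. Its high libraries were PBS replicates 1 and 2, and it did not pass (log2 fold change -2.95 ± 1.27 SE, edgeR adjusted p = 0.571). Without them the Slc6a19 value was -0.69 ± 1.36.

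A lack of tryptophan leaves its tRNA uncharged, which activates the kinase GCN2 (Eif2ak4) and, through Atf4, genes of amino acid supply. Of 10 genes of this response, 0 passed by edgeR, DESeq2 or limma voom. An unadjusted p under 0.05 was found for 0 of 10, against 8.7% of all genes. The median log2 fold change was -0.20, against 0.0070 over all genes. Psat1, an enzyme of serine synthesis, had 34.7 to 49 CPM in DT libraries and 43.5 to 74.8 CPM in PBS libraries (log2 fold change -0.41 ± 0.20 SE, edgeR adjusted p = 0.571). Phgdh, the first enzyme of serine synthesis, had 48.4 to 64.6 CPM in DT libraries and 41.5 to 55.4 CPM in PBS libraries (log2 fold change 0.21 ± 0.12, adjusted p = 0.571).

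Ido1, Ido2, Haao and Ahr varied with the conceptus marker score of the library when treatment was kept in the model, a relation chosen after the data were seen. The score is the mean over the 17 tested conceptus markers of their standardised log2 CPM. It was -0.893, 0.00559, -0.564 and -0.173 in DT replicates 1, 3, 4 and 5, against 0.968, 1.71, -0.818 and -0.231 in PBS replicates 1, 2, 4 and 6. By edgeR, Ido1 rose 2.07-fold per unit of score (log2 slope 1.05 ± 0.24 SE, adjusted p = 0.0264). Ido2 rose 1.68-fold (0.75 ± 0.18, adjusted p = 0.0291) and Haao 1.38-fold (0.46 ± 0.11, adjusted p = 0.0289), while Ahr fell (-0.20 ± 0.055, adjusted p = 0.0459). By edgeR, 4 of the 10 genes passed, against 17.0% of all genes tested (8.44% rising and 8.58% falling with the score), and by limma voom 3 passed, without Ahr (adjusted p = 0.0518), against 16.7% (8.64% rising and 8.03% falling).

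The slope calls were not firm. The slope of Ido1 was between 0.90 and 1.36 in the 8 fits that left out 1 library, with adjusted p above the threshold without DT replicates 3 or 4 or PBS replicates 1, 4 or 6, the highest being 0.153 without PBS replicate 4. Without PBS replicates 1 and 2 it was 2.18 ± 0.52 (SE, edgeR adjusted p = 0.0425), and without these and DT replicate 1 it was 1.27 ± 0.39 (adjusted p = 0.0926). Ido2 kept a slope between 0.64 and 0.93 and missed the threshold without DT replicate 3 or PBS replicate 1, 2 or 4 (adjusted p up to 0.176). Without PBS replicates 1 and 2 it was 1.5 ± 0.42 (SE, edgeR adjusted p = 0.0604), and without these and DT replicate 1 it was 0.75 ± 0.31 (adjusted p = 0.174). Haao missed it without DT replicate 3 or PBS replicate 1, 2, 4 or 6, and without PBS replicates 1 and 2 together (slope 0.44, adjusted p = 0.375). Ahr passed in 1 of those 8 fits, that without DT replicate 1 (slope -0.17, adjusted p = 0.0196), and its slope was -0.065 without PBS replicates 1 and 2 and DT replicate 1.

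The slopes of Tdo2 and Wars did not pass. They were 0.044 ± 0.11 (SE, edgeR adjusted p = 0.808) for Tdo2 and 0.056 ± 0.17 (adjusted p = 0.844) for Wars, and 0.46 ± 0.26 for Tdo2 and 0.89 ± 0.36 for Wars without PBS replicates 1 and 2 (adjusted p = 0.265 and 0.144). That of Slc7a5 was 0.28 ± 0.082 (adjusted p = 0.0522) and -0.23 without PBS replicates 1 and 2. It passed with relative log expression size factors (0.29, adjusted p = 0.0454) and without DT replicate 1 (0.31, adjusted p = 0.0235). The slopes of Kmo, Kynu and Afmid did not pass either.

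**Figure D4:**
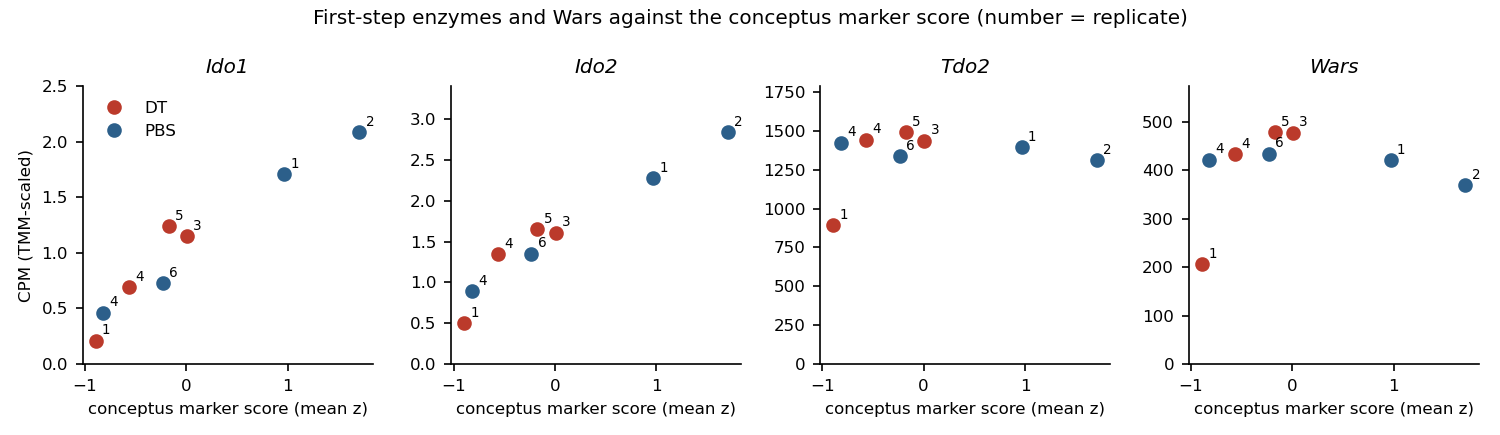
CPM of Ido1, Ido2, Tdo2 and Wars against the conceptus marker score of each library (DT red, PBS blue, numbers are replicates). Ido1 and Ido2 are highest in PBS replicates 1 and 2, which have the highest scores, and lowest in DT replicate 1, and Tdo2 and Wars are also lowest in DT replicate 1 but are not highest in PBS replicates 1 and 2.

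Some other marker sums had the same ends as Ido1 and the conceptus score, with PBS replicates 1 and 2 highest and DT replicate 1 lowest. These were the sums of decidual stroma, endothelial, uterine NK cell and neutrophil markers. The part of these markers in the results was not tested. The decidual sums are given above, and their largest part was Prl8a2, at 687 to 5666 CPM in DT libraries and 2893 to 8960 CPM in PBS libraries. Among the decidual markers only Prl8a2 and Cyp11a1 had these ends. Prl3c1 measured 87.2, 96.7, 294 and 385 CPM in PBS replicates 1, 2, 4 and 6, and Bmp2 592, 524, 846 and 838 CPM. Endothelial markers (5 genes, none at 0) summed to 655 to 943 CPM in DT libraries and 672 to 1472 CPM in PBS libraries. Uterine NK cell markers (6 genes, none at 0) summed to 61 to 116 CPM in DT libraries and 77 to 298 CPM in PBS libraries, with the cytolytic protein gene Prf1 as the largest part, at 28.5 to 62.9 CPM in DT libraries and 40.5 to 212 CPM in PBS libraries. The NK receptor gene Ncr1 did not follow that sum, with 5.16 to 6.08 CPM in DT libraries and 5.16 to 7.25 CPM in PBS libraries. Neutrophil markers (5 genes, none at 0) summed to 14.8 to 103 CPM in DT libraries and 38.4 to 163 CPM in PBS libraries, and most of that sum was S100a8 in every library but DT replicate 1. S100a9, Retnlg and Csf3r, also neutrophil markers, were 3.32-fold, 3.83-fold and 1.42-fold higher in DT libraries without overlap, and none of them passed (edgeR adjusted p = 0.254, 0.254 and 0.419). That is 3 of the 5 neutrophil markers, against 3.33% of all genes tested that were higher without overlap. S100a8 and Ly6g were lower on average in DT libraries, with overlap. Ly6g had 0.0816 to 0.107 CPM in DT libraries, against 0.0218, 0.0206, 4.81 and 3.95 CPM in PBS replicates 1, 2, 4 and 6. PBS replicates 4 and 6, its highest libraries, share a title tag. Ly6g did not pass (log2 fold change -4.5 ± 1.5 SE, edgeR adjusted p = 0.53).

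Other sums did not have these ends. Macrophage markers (7 genes, none at 0) summed to 366 to 392 CPM in DT libraries and 260 to 347 CPM in PBS libraries, without overlap. Dendritic cell markers (7 genes, none at 0) summed to 33.7 to 53.9 CPM in DT libraries and 26.7 to 35.6 CPM in PBS libraries. Single genes did not overlap for 3 of the 7 macrophage and 2 of the 7 dendritic cell markers, all higher, against 3.33% of all genes tested. Epithelial markers (6 genes, none at 0) summed to 127 to 156 CPM in DT libraries and 110 to 278 CPM in PBS libraries. The sum of myometrial markers (5 genes, none at 0) was 3668 to 4155 CPM in DT libraries and 3581 to 4376 CPM in PBS libraries, and its largest part was Des, which was lowest in DT replicate 1. The smooth muscle genes Acta2, Myh11, Cnn1 and Actg2 were all highest in DT replicate 1, where Myh11 measured 1097 CPM, against 341 to 849 CPM in PBS libraries. DT replicate 1 is also the library that stands at an end for Tdo2, Wars, Kmo and Ahr, and the part of these muscle genes in those values was not tested.

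**Figure D5:**
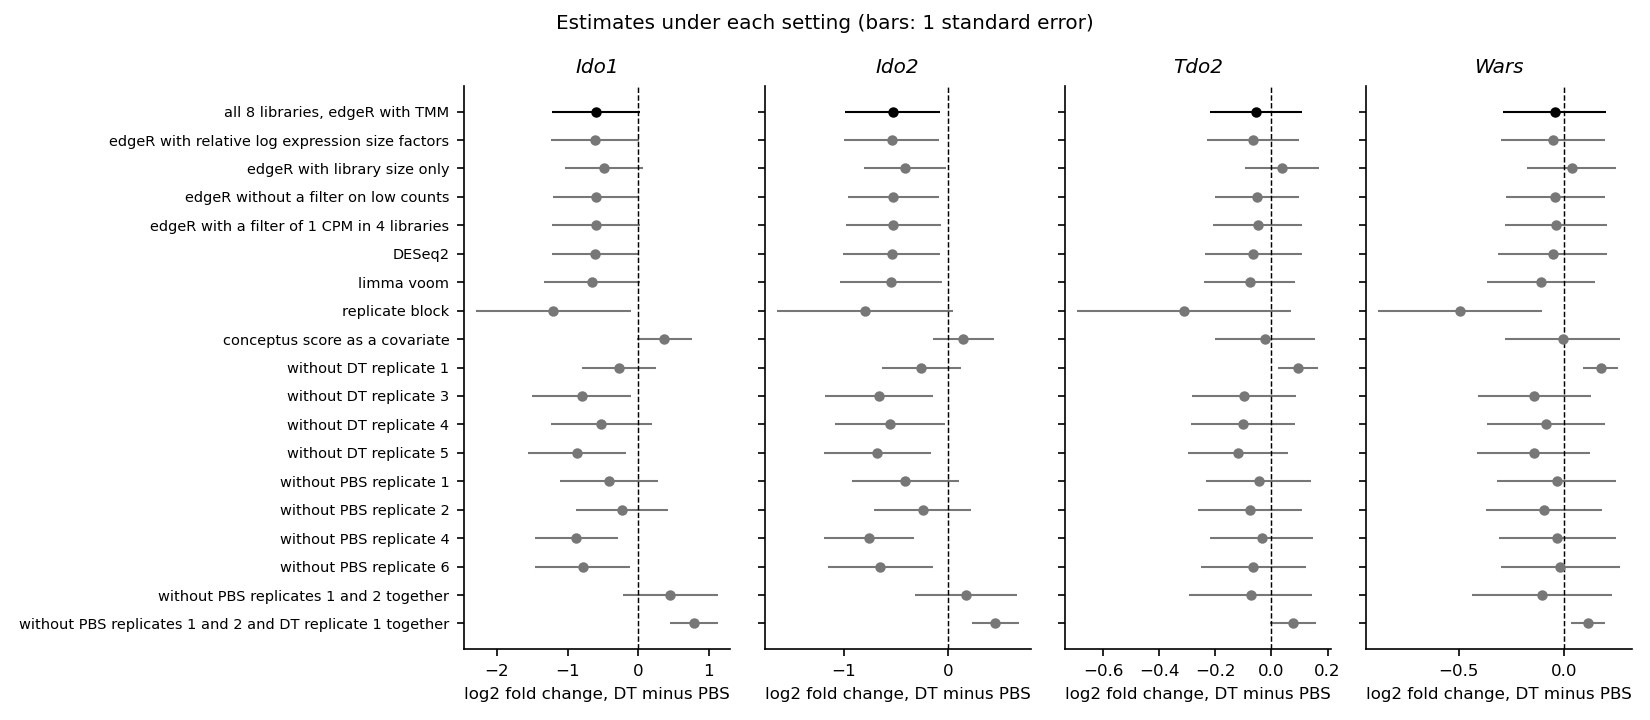
Log2 fold change of DT minus PBS for Ido1, Ido2, Tdo2 and Wars under each setting (points, with bars of 1 SE), with the fit of all 8 libraries in black at the top. The points of Ido1 and Ido2 lie right of 0 in 3 settings, with the conceptus score as a covariate and in both fits without PBS replicates 1 and 2.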

How the data were processed

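Whole-uterus RNA from 8 females, 4 DT and 4 PBS, was measured, each library taken as 1 female. P-values measure the spread between these libraries and treat them as independent. Title tags shared by libraries within a group were not modelled. The authors deposited raw read counts per gene. Per the submitters' processing notes, Trimmomatic, HISAT2, SAMtools, featureCounts and DESeq2 were used with build GRCm38; for versions, settings and use of strand, not given in the sources used here, no assumption was made, so reads of genes that overlap on opposite strands may not be separable. Gene names and exon lengths came from GENCODE M21, which matched 49326 of 49585 IDs.

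Genes with enough counts (filterByExpr, minimum 10) were scaled by TMM and tested with edgeR 4.0.16 (R 4.3.3), the robust quasi-likelihood test, DT against PBS with no covariate, with Benjamini-Hochberg adjustment over 22693 genes and a threshold of 0.05. Alternatives were other scalings and filters, DESeq2 1.42.0, limma 3.58.1 voom, a replicate block, the conceptus score as a covariate, and libraries left out. The scripts were tested on simulated data. There edgeR called 19 of 47 genes set to 0.5-fold and 31 of 50 set to 2-fold, each in the right direction. It called 43 of 50 set to 0.25-fold and 45 of 50 set to 4-fold, and 7 of 22181 unchanged genes. A 2-fold change could therefore be missed. Counting intervals cover counting error only.

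The 10 genes and all gene lists were chosen with earlier results of these data known, so they are not independent evidence. Named genes were all 10, and from each pathway list the called genes, up to 4, or the 2 with the smallest unadjusted p. Slopes on the conceptus score, and the alternatives for Irf1, Nampt, Nmnat2, Slc6a19 and Tiparp, were added after seeing the data. Nampt, Ifng and the cell type markers were named after their values were seen. Results for 1 listed gene are not reported here.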

Additional observations from a re-analysis of the deposited data

Results flagged for a closer look

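In 2 of the 20 gene and group combinations examined, 1 library stood far from the other 3 of its group by Dixon's test, and chance alone gives about 1 in 20. Tdo2 in DT replicate 1 measured 894.4 CPM, with a gap to the next library of 0.911 of the DT range. Wars in DT replicate 1 measured 207.0 CPM, with a gap of 0.832 of the DT range. The same library had the lowest decidual marker sum, 2698 CPM, and the part of this in the 2 values was not tested.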

How the results depend on the processing

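None of the 10 genes was called in any of the 18 alternatives, and the smallest adjusted p among 178 values was 0.191, for Slc7a5 without PBS replicate 4; 151 values kept their direction and 27 reversed. Over all genes, 74 were called by edgeR, 333 by DESeq2, 0 with the replicate block (280 at an unadjusted p under 0.05), 1 without PBS replicates 1 and 2, and 0 to 116 when 1 library was left out (116 without DT replicate 1, 48 without PBS replicate 4, 0 without any other, with 1066 to 2047 at an unadjusted p under 0.05). Numbers 1 and 4 occur in both groups, and deviations correlated at -0.491 and 0.321, which cannot decide whether samples were paired. Only these 2 numbers inform the treatment estimate under the block, which limits its 0 calls. Under the block the Kmo and Kynu log2 fold changes were 0.090 and 0.81. With library size only, which moved the median of all genes to 0.12, Tdo2, Kynu, Afmid and Wars were at 0.037, 0.12, 0.043 and 0.034. With the conceptus score as a covariate Ido1, Ido2, Kynu and Haao were at 0.37, 0.15, 0.31 and 0.072, and by limma voom Kynu was at 0.10. Without PBS replicates 1 and 2, Ido1, Ido2, Kynu and Haao were at 0.46, 0.17, 0.26 and 0.15. Without these and DT replicate 1, Ido1, Ido2, Tdo2, Kynu, Haao, Ahr and Wars were at 0.79, 0.45, 0.077, 0.018, 0.20, -0.023 and 0.11. Leaving out 1 library gave -0.12 to 0.094 for Tdo2, -0.27 to 0.47 for Kynu and -0.15 to 0.17 for Wars. Wars against the other synthetases was -0.062 with their median, -0.088 without PBS replicates 1 and 2, and -0.046 to 0.23 with 1 library left out. The slope of Slc7a5 was -0.23 without PBS replicates 1 and 2 and -0.32 without these and DT replicate 1. The slope of Tdo2 was -0.068 with library size only, -0.069 without the 3 libraries and -0.028 to 0.14 with 1 left out, and that of Wars was -0.055 with library size only and -0.057 to 0.25 with 1 left out. Nampt was at 0.012 without the 3 libraries. The cause of these changes was not tested. Kynu and Haao had no value under the stricter filter of 1 CPM in 4 libraries, and the low counts of Kynu limit what could be seen.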
